A study of Drosophila melanogaster with 4 samples.

Results

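The voltage-gated sodium channel *para*, its auxiliary subunits *tipE* and *Teh1* to *Teh4* (also written *TEH1* to *TEH4*), the sodium leak channel *na*, the hyperpolarization-activated channel *Ih* and the calcium channels *Ca-alpha1D* and *Ca-alpha1T* were examined in heads of adult *Drosophila melanogaster*. These 10 genes were chosen by name, as carriers or modulators of inward current. Counts of 9 of them, out of 13608 genes in all, were matched to FlyBase symbols through their gene identifiers, and *tipE* was not analysed here. The samples are 4 replicates of untreated wild-type flies, all of one condition, so no treatment or genotype is compared. In the paper, wild type stands for *w1118*, flies of both sexes were used, and RNA for 3′-seq came from UV-cross-linked powder of pooled heads. Neither the age of the flies nor the number of lines or head pools behind the replicates is given in the sample labels, although the series record speaks of independent lines, and p-values therefore measure only the spread between these samples, which may be technical.

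A neuron fires when voltage-gated sodium channels open and sodium flows in, and the fly encodes these channels in a single gene, *para*. TipE and its relatives are small membrane proteins that raise the surface expression or change the gating of Para in expression systems. Between action potentials, the leak channel Narrow abdomen (the product of *na*, the fly NALCN) and the HCN channel Ih set resting potential and rhythm, and *na* is known for its part in circadian behaviour. Voltage-gated calcium channels then turn depolarization into calcium entry: Ca-alpha1D is the L-type channel, also at work in muscle, Ca-alpha1T is the T-type channel that opens near rest, and Cacophony (*cac*) is the channel of the presynaptic active zone.

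Libraries were made by 3′-seq, in which reads start at the poly(A) tail, so that long and short transcripts in principle give the same number of reads per molecule and the levels of genes can be set side by side. In its methods the paper removed poly(A) sites at A-rich stretches away from annotated ends, where reads likely start within a transcript. Whether such reads were kept in the gene counts is not given in the sources used here. Levels are given as counts per 1000000 counts on genes (CPM). The library totals ranged from 8753359 counts in replicate 3 to 13434565 counts in replicate 1, so that a single count is worth most in replicate 3. The 95% Wilson intervals given for levels cover counting error only and treat each count as independent. The paper's methods name no molecular identifiers, so reads copied from the same molecule may have been counted separately. The 7 neuronal markers analysed, *elav* and *nSyb* among them, were all well above 0, and their summed level ranged from 3239 to 4139 CPM. The 6 photoreceptor markers summed to between 27170 and 37260 CPM. Markers of tissues outside the head were also found, most of all in replicate 1. The 5 midgut markers reached 639 CPM there and between 53.4 and 111 CPM elsewhere. For the 5 male accessory gland markers the sums were 374, 5.75, 6.28 and 121 CPM, in the order of the replicate numbers. Because whole heads were measured, fewer cells of a type and less RNA per cell cannot be told apart.

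The channels spanned a wide range of levels. At the top stood *para*, *Ih* and *Ca-alpha1T* with means of 739, 346 and 260 CPM, and at the bottom *Teh4* with 11.9 CPM and *na* with 7.15 CPM. *Teh3* had no counts. Among the 11890 genes that were not at 0 throughout, *para* ranked 238th, *Ih* 461st and *Ca-alpha1T* 596th by mean level, whereas *na* ranked 6771st. Of the 9 members, 8 reached 10 counts in all replicates, a condition met by 57.0% of all genes (63.3% for a single count). The median of their mean levels was 27.4 CPM, against 25.4 CPM over all genes that met it. Together the members held 0.144% of the counts.

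**Figure D1:**
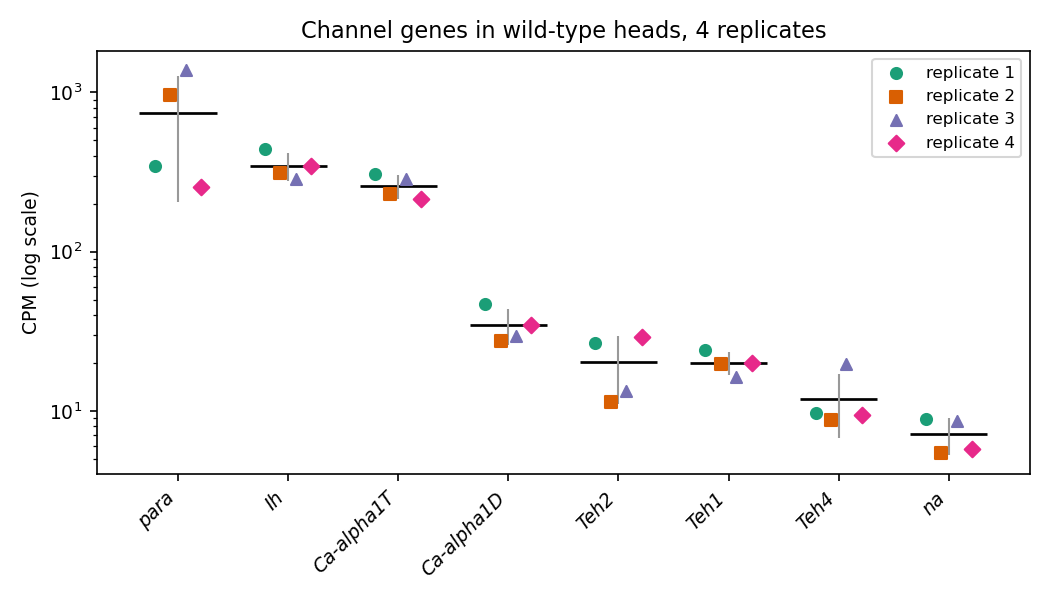
Level of 8 channel genes in CPM on a log axis, with 1 point for each of the 4 replicates, a horizontal bar for the mean and a vertical line for the SD. Levels run from 5.40 CPM for *na* in replicate 2 to 1384 CPM for *para* in replicate 3, and the *para* points are spread the most. *Teh3*, at 0 in every replicate, cannot be drawn on this axis.

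*para* (FBgn0285944) encodes the pore-forming subunit of the sodium channel and lies on chromosome X from 16455027 to 16533096 of dm6, on the minus strand. Its counts were 4623, 10792, 12115 and 2737 in replicates 1 to 4. In the same order, the levels were 344, 970, 1384 and 256 CPM, with 95% Wilson intervals of 334 to 354, 952 to 989, 1360 to 1409 and 247 to 266 CPM. Replicates 2 and 3 were thus high and replicates 1 and 4 low, and no interval overlapped another. The mean was 739 ± 535 CPM (SD, n = 4), and the highest replicate had 5.40 times the level of the lowest. Without replicate 3 the mean was 524 CPM, and without replicate 4 it was 900 CPM.

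So wide a range was uncommon at this level. A total of 7754 genes reached 10 counts in all replicates, and 1392 of these had a mean of 100 CPM or more. Among the 1392, the highest replicate was 5 or more times the lowest in 4.74%, and 4.31% had a ratio as large as that of *para*. Over the whole set of 7754, a ratio of 5 or more was seen in 9.40%. Of the 8 members that passed this filter, only *para* reached it, and their median ratio was 1.68, against 2.12 over the 7754 genes. The biological coefficient of variation, the spread beyond counting noise that edgeR estimated for each gene on its own, was 0.828 for *para*, above that of 97.5% of the genes fitted. The common value across these genes was 0.403.

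**Figure D2:**
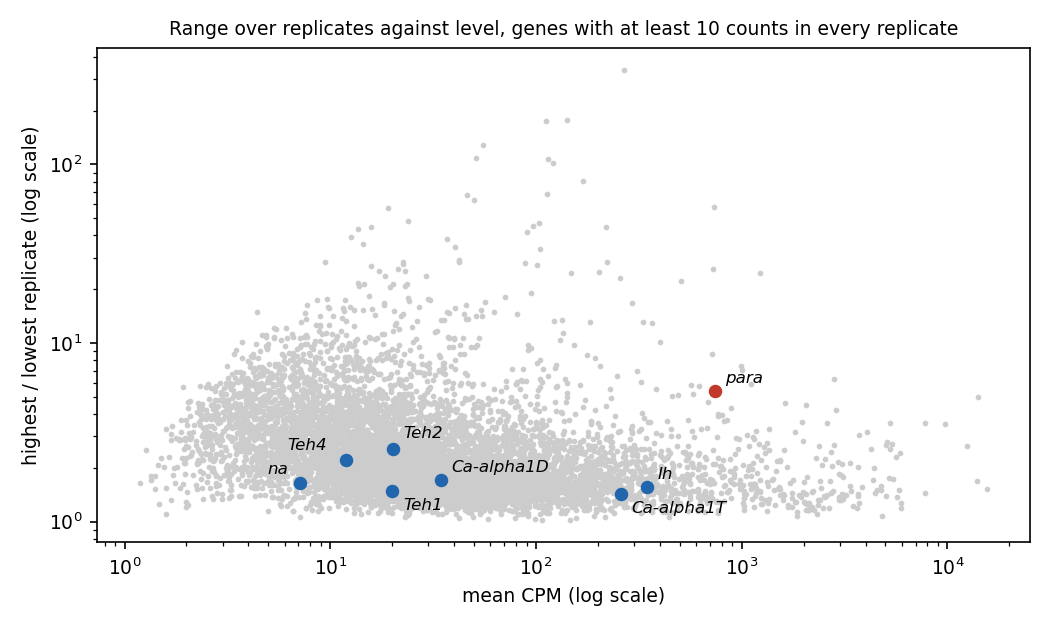
Ratio of the highest to the lowest replicate against mean CPM, both on log axes, for the 7754 genes that reached 10 counts in all replicates (grey), with *para* in red and 7 other channel genes in blue. *para* sits at 5.40 while the other 7 lie between 1.43 and 2.56.

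The order of replicates in *para* was then looked for in other genes. Both replicates 2 and 3 were above both replicates 1 and 4 in 13.1% of the 7754 genes, an order that was chosen after the *para* values were seen. Among the 8 members that passed the filter, *para* alone had it, or 12.5%, near that share, so the order does not set the members apart. A margin of at least 2-fold between these pairs, as in *para*, was present in 0.735% of genes. *Ih*, *Ca-alpha1T* and *na* varied by 1.55, 1.43 and 1.66 times across the same libraries, and the sum of all members but *para* by 1.40 times. Of these, *na* and *Ca-alpha1T* lie on the X chromosome, as *para* does, and the part of the chromosome in these values was not tested. Scaling by the summed neuronal markers left the ratio of the highest to the lowest *para* value at 5.05, and TMM scaling raised it to 6.87. Several marker sums were higher in replicates 1 and 4, where *para* was low. Besides the sums for accessory gland and midgut given above, the glial sum was 3475 and 2438 CPM there, against 1847 and 1819 CPM in the other pair, and the photoreceptor sum was 37260 and 33300 CPM, against 27410 and 27170 CPM. One by one, 5 of 5 accessory gland markers, 5 of 7 glial markers, 3 of 6 photoreceptor markers, 4 of 8 muscle markers, 2 of 7 neuronal markers and 1 of 5 midgut markers were higher in both replicates 1 and 4, an order found in 37.9% of the 7754 genes. *Acp36DE* was at 0 in replicate 2 and *Acp26Aa* in replicate 3. Of the midgut list, *Jon99Ci* was at 0 in replicate 3 and *Npc2d* in replicates 3 and 4. The part of these tissues in the *para* values was not tested.

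The annotation places the ends of *para* transcripts far apart. Of 60 annotated transcripts, 57 end at 16463603, 2 end at 16458867 and 1 ends at 16455027, which is 8576 nt beyond the first of these, and the annotated 3′UTRs reach from 143 to 8761 nt. The farthest end lies 54 bp from the gene *eIF4H1* on the opposite strand. Counts per gene do not tell which end was used in which replicate. The paper names an Ensembl release for its RNA-seq data but does not tie it to the 3′-seq counts, and whether reads at the far ends were counted is unknown. The nested gene *Cnx14D* shares no exon sequence with *para* and had at most 2 counts in a replicate.

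*NaCP60E*, a relative of *para* that encodes a voltage-gated cation channel, offered a steady comparison. It had 529, 418, 531 and 531 CPM in replicates 1 to 4, with a mean of 502 ± 56.2 CPM (SD, n = 4). The values of replicates 1, 3 and 4 lay within a few CPM of each other, and replicate 2 was lower. *NaCP60E* was higher than *para* in replicates 1 and 4, at 1.54 and 2.07 times its level, and lower in replicates 2 and 3, at 0.431 and 0.384 times. The ratio of the relatives therefore has no single direction in these heads.

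Factors that act on *para* RNA were examined as well: the helicase *mle*, whose *nap* allele disturbs *para* splicing, the splicing factor *ps* (Pasilla), the editing enzyme *Adar* and the translational repressor *pum*. *mle* had 80.5, 157, 114 and 84.1 CPM in replicates 1 to 4, which is the order of replicates seen in *para* at a smaller range of 1.95 times. Of the 14 partner genes analysed, *mle* and *CngB* had this order, or 14.3%, near the 13.1% of all genes, so it does not set the partners apart. *Adar* went the other way, with 64.5, 40.9, 25.9 and 57.2 CPM, and so did *pum* with 101, 78.1, 41.9 and 85.5 CPM. *ps*, the most abundant at 709 ± 117 CPM (SD, n = 4), had the same order as *Adar* and *pum*. The opposite order, with replicates 1 and 4 above 2 and 3, was common, at 7 of the 14 partners and 37.9% of the 7754 genes.

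The auxiliary subunits are grouped on the genome. *Teh4*, *Teh2*, *Teh3* and *tipE* lie within 18.9 kb on chromosome arm 3L, the *Teh* genes on the minus strand and *tipE* on the plus strand. *Teh4* (FBgn0035504) spans 4174859 to 4178270, and 709 bp further *Teh2* (FBgn0035505) spans 4178980 to 4188023. *Teh3* (FBgn0040697), from 4182645 to 4184663, lies inside the bounds of *Teh2*. *tipE* (FBgn0003710) follows from 4188499 to 4193788, and *Teh1* (FBgn0037766) stands alone on chromosome arm 3R from 9826081 to 9868120.

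**Figure D3:**
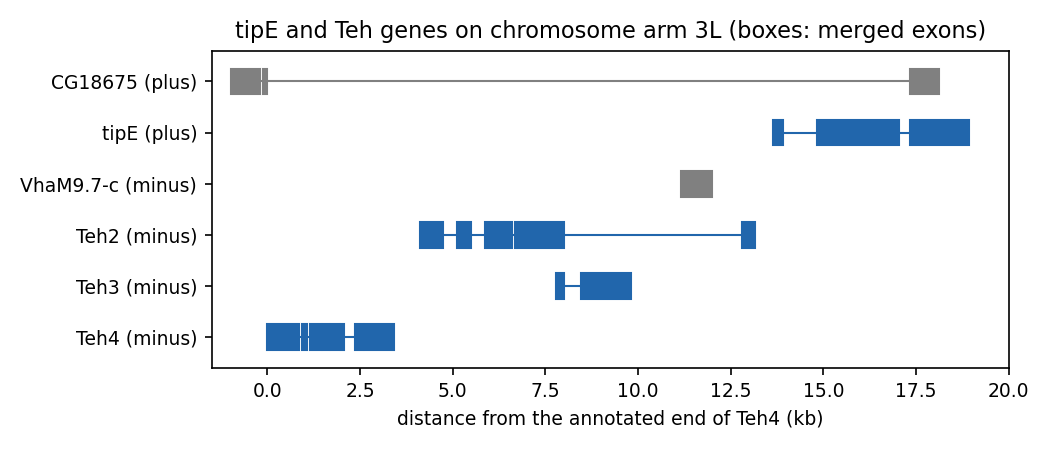
Annotated gene bounds (lines) and merged exons (boxes) of the *tipE* and *Teh* genes in blue and of *CG18675* and *VhaM9.7-c* in grey, against the distance from the annotated end of *Teh4* in kb, with the strand in parentheses. The last exon of *Teh3*, which begins 7.79 kb from that end, lies within the extent of an exon of *Teh2*.

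The auxiliary genes that could be measured were expressed at low and similar levels, far below the pore gene. *Teh1* had 24.2, 19.8, 16.3 and 19.9 CPM in replicates 1 to 4, with a mean of 20.1 ± 3.22 CPM (SD, n = 4). Its estimated coefficient of variation was 0.0315, above that of 1.65% of the genes fitted. This small value moved with the libraries used. It was 0.00988 without replicate 1 or replicate 4, 0.0502 without replicate 3 and 0.0643 without replicate 2. Without scaling factors it was 0.144. The value 0.00988 is the lowest that the fit returned and is shared by many genes. It means that no spread beyond counting noise could be estimated. *Teh2* had 26.8, 11.4, 13.2 and 29.2 CPM, with a mean of 20.2 ± 9.13 CPM (SD, n = 4). Here replicates 1 and 4 were high and replicates 2 and 3 low, opposite to *para*. The intervals of the former (24.2 to 29.7 CPM and 26.1 to 32.6 CPM) did not meet those of the latter (9.60 to 13.6 CPM and 11.1 to 15.9 CPM). This order is not particular to *Teh2*. It was found in 4 of the 8 members that passed the filter (*Teh1*, *Teh2*, *Ih* and *Ca-alpha1D*) and in 37.9% of the 7754 genes. *Teh4* had 9.68, 8.81, 19.5 and 9.46 CPM, with a mean of 11.9 ± 5.12 CPM (SD, n = 4). Replicate 3 alone was high, and the mean without it was 9.32 CPM. A replicate this far from the rest, by the gap to its nearest neighbour over the range, was seen in 1 of the 8 members and in 5.16% of the 7754 genes.

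*Teh3* was at 0 counts throughout. A level of up to 0.223 CPM in replicate 1, the deepest library, and 0.343 CPM in replicate 3, the shallowest, would still be within the limit that a count of 0 sets. Against this limit of 3 counts per library, *Teh1* was at least 47.7-fold higher in every library and *Teh4* at least 32.7-fold. A count of 0 in every replicate was found in 12.6% of all genes. The annotation qualifies this value. The last exon of *Teh3* has 229 nt, from 4182645 to 4182873, and all 229 nt are also annotated as exon of a *Teh2* transcript on the same strand. Reads at the poly(A) site of *Teh3* would fall into this shared stretch. How reads that fit 2 genes were counted is not given in the sources used here, so that a gene without transcripts and a gene whose reads were not assigned cannot be told apart. The ends of *Teh1*, *Teh2* and *Teh4* are free of this limit, since the last 300 nt before each of their annotated ends hold no exon of another gene on either strand. The *Teh2* exon that holds the shared 229 nt is not free of it, and whether reads there entered the *Teh2* count is unknown.

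Composition within the auxiliary family can be read without any scaling between libraries. Of the counts on *Teh1* to *Teh4*, *Teh1* took 39.1 ± 7.47% (SD, n = 4), *Teh2* 37.4 ± 11.4% and *Teh4* 23.5 ± 11.2%. In replicate 1 the largest share was that of *Teh2*, at 44.2% (95% Wilson interval 40.8 to 47.6%). Its interval overlapped that of *Teh1*, at 39.9% (36.6 to 43.3%). In replicate 2 it was that of *Teh1*, at 49.4% (44.8 to 54.1%). In replicate 3 *Teh4* had the largest share at 39.8% (35.2 to 44.5%), again overlapping *Teh1*, at 33.3% (29.0 to 37.8%). In replicate 4 it was once more that of *Teh2*, at 49.8% (45.9 to 53.8%). Among *Teh1* to *Teh4*, no gene therefore led in all replicates, and *tipE* is not part of these shares.

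**Figure D4:**
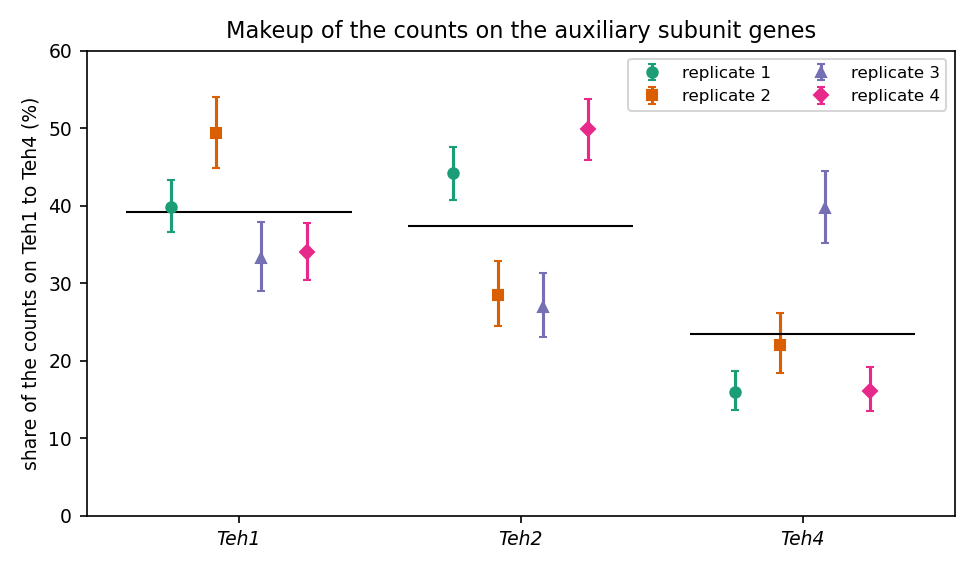
Share of the counts on *Teh1* to *Teh4* held by *Teh1*, *Teh2* and *Teh4* in each replicate, in percent, with 95% Wilson intervals as error bars and the mean as a horizontal line. *Teh2* was at 44.2% and 49.8% in replicates 1 and 4 but at 28.5% and 27.0% in replicates 2 and 3, and *Teh4* reached 39.8% in replicate 3.

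The summed level of *Teh1* to *Teh4* was 60.7, 40.0, 49.1 and 58.6 CPM, a range of 1.52 times. Their ratio to *para* moved far more, because *para* did. The ratios were 0.176, 0.0412, 0.0355 and 0.229, with a mean of 0.120 ± 0.0972 (SD, n = 4). From the counts summed over replicates, which gives most weight to the libraries rich in *para*, the ratio was 0.0765. In each replicate there were several *para* counts for each auxiliary count, from 4.37 to 28.2, with *tipE* not included.

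*Ih* (FBgn0263397), the only HCN channel gene of the fly, lies on chromosome arm 2R from 14276130 to 14300095. It had 442, 312, 284 and 346 CPM in replicates 1 to 4, with a mean of 346 ± 68.6 CPM (SD, n = 4). Replicate 1 was highest and replicate 3 lowest, while with TMM scaling the extremes came closer, to 384 CPM in replicate 1 and 319.7 CPM in replicate 4. Its coefficient of variation of 0.0915 was above that of 5.46% of the genes fitted. Without replicate 1 it was 0.00988, the lowest value that the fit returned. Transcripts of *Ih* have 4 annotated ends over 7076 nt. The last of these lies 7 bp from *tej* on the opposite strand, and 7 of 11 transcripts end 1200 nt before it. Among the channels gated by cyclic nucleotides that are related to *Ih*, *Cngl* was the most abundant at 149 ± 15.8 CPM (SD, n = 4), *CngB* had 36.6 ± 11.1 CPM and *CngA* 4.06 ± 2.39 CPM. *Ih* was above each of them in every replicate.

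The leak channel gene *na* (FBgn0002917), on chromosome X from 14266367 to 14277416, was the member with the lowest level above 0. Its counts were 120, 60, 75 and 61, or 8.93, 5.40, 8.57 and 5.71 CPM in replicates 1 to 4, with a mean of 7.15 ± 1.86 CPM (SD, n = 4). Replicates 1 and 3 were above replicates 2 and 4, and the interval of replicate 1 (7.47 to 10.7 CPM) met neither that of replicate 2 (4.19 to 6.94 CPM) nor that of replicate 4 (4.45 to 7.34 CPM). The interval of replicate 3 (6.84 to 10.7 CPM) overlapped all of them. Genes for the proteins that work with this channel were far more abundant. *unc79* and *unc80*, which encode large proteins of the channel complex, had 156 ± 29.7 and 291 ± 73.1 CPM (SD, n = 4), and *Mid1* (also called *Nlf-1*), which encodes a factor for its localization, had 80.4 ± 7.50 CPM.

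In every replicate, each of these partners exceeded *na*. For *unc80* the ratio was 28.6, 45.4, 46.7 and 45.9 in replicates 1 to 4, for *unc79* it ranged from 13.4 to 32.4 and for *Mid1* from 9.19 to 14.6. *na* has 2 annotated ends, 242 nt apart, and no annotated gene overlaps it, so an overlap with another annotated gene does not enter its count. Reads at poly(A) sites beyond an annotated end, for *na* as for the other members, would fall outside the gene.

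**Figure D5:**
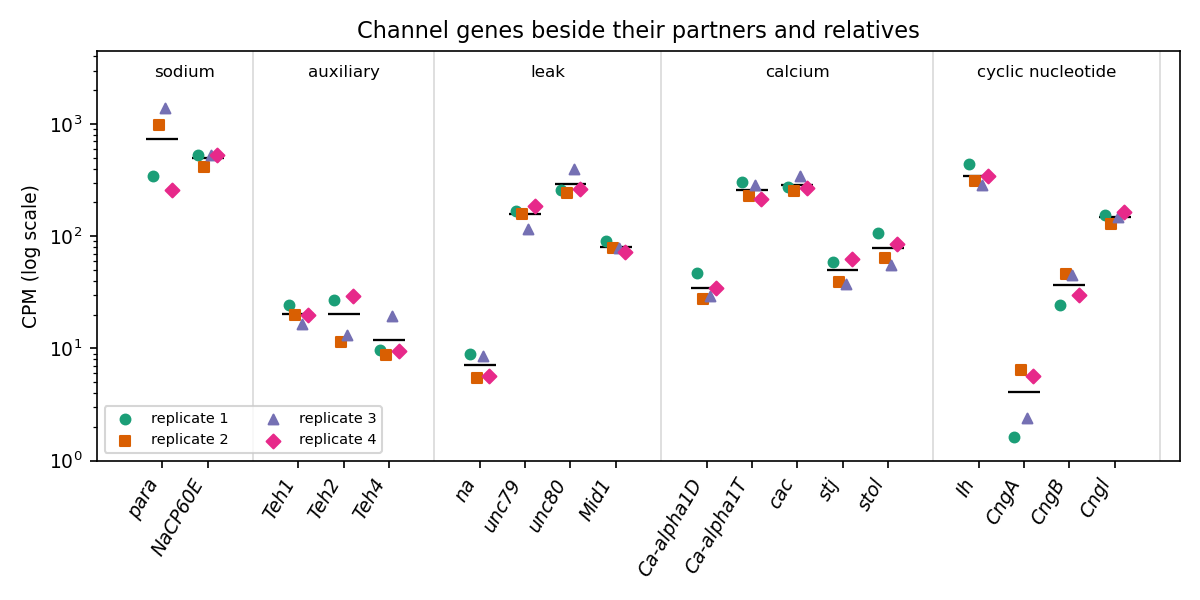
Level in CPM on a log axis of the channel genes and of their partners and relatives, grouped by channel, with 1 point per replicate and a horizontal bar for the mean. *na* lies below *unc79*, *unc80* and *Mid1* in all 4 replicates, and *Ca-alpha1D* lies below *Ca-alpha1T* and *cac*.

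Both calcium channel members varied less across libraries than *para*, by 1.43 times for *Ca-alpha1T* and 1.71 times for *Ca-alpha1D*, but differed in level. *Ca-alpha1T* (FBgn0264386), the T-type gene on chromosome X from 6104085 to 6192483, had 307, 230, 287 and 214 CPM in replicates 1 to 4, with a mean of 260 ± 44.3 CPM (SD, n = 4). *Ca-alpha1D* (FBgn0001991), the L-type gene on chromosome arm 2L from 16165831 to 16190540, had 47.1, 27.5, 29.4 and 34.4 CPM, with a mean of 34.6 ± 8.84 CPM (SD, n = 4). The T-type gene was higher in 4 of 4 replicates, by 6.24 to 9.79 times, and the ranges did not overlap. An antisense RNA gene, *asRNA:CR43806*, shares 248 nt of exon sequence with *Ca-alpha1D*, or 2.37% of its exons, and without a stated strand setting reads there cannot be told apart. *Ca-alpha1D* was highest in replicate 1. The 8 muscle markers, in whose tissue this channel also works, summed to 7293, 9893, 6650 and 5180 CPM, with replicate 2 highest through *Mlc2*. One by one, 6 of the 8 were highest in replicate 1 (35.3% of the 7754 genes), as *Ca-alpha1D* was. Among them was *Mlc1* with 289.8 CPM there and 117 to 132 CPM elsewhere. The same held for 6 of 7 neuronal, 4 of 7 glial and 4 of 6 photoreceptor markers. It also held for 5 of 5 midgut and 5 of 5 accessory gland markers, so it does not set muscle apart. The part of any of these tissues in the *Ca-alpha1D* values was not tested.

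*cac*, which encodes the presynaptic channel and is no member, had 283 ± 40.4 CPM (SD, n = 4), close to *Ca-alpha1T*. Of the counts on the 3 alpha1 genes, *cac* took 49.1 ± 3.90%, *Ca-alpha1T* 44.8 ± 3.10% and *Ca-alpha1D* 6.01 ± 1.35% (SD, n = 4). *Ca-alpha1T* was above *cac* in replicate 1 only, with a ratio of 1.12, and at 0.804 to 0.918 of it in the others. The alpha2delta genes *stj* and *stol*, whose products help calcium channels reach the membrane, had 49.9 ± 13.2 and 78.3 ± 23.6 CPM (SD, n = 4). Their sum, with no other auxiliary gene included, was 0.141 to 0.289 times that of the alpha1 genes, and *stol* exceeded *stj* in every replicate. *Ca-beta* was not analysed here.

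Neighbours in the order of mean levels were compared within libraries by an exact two-sided permutation test over the 4 replicates, with 16 sign patterns. A pair that keeps its direction in all replicates has the smallest p this design can give, which is above 0.05, so no pair could pass. Of 7 neighbouring pairs, 3 kept the same direction in every replicate: *Ca-alpha1T* above *Ca-alpha1D*, *Ca-alpha1D* above *Teh2* and *Teh4* above *na*, each with that smallest p and, after Benjamini-Hochberg adjustment of the exact test over the 7 pairs, 0.292. Only the first of these pairs had ranges that did not overlap. *Ih* was above *Ca-alpha1T* in 3 of 4 replicates (exact p = 0.25), and *Teh1* above *Teh4* in 3 of 4 (exact p = 0.25). *para* was above *Ih* in 2 of 4 replicates (exact p = 0.5), by 3.11 and 4.87 times in replicates 2 and 3, and below it in replicates 1 and 4, at 0.779 and 0.741 times. *Teh2* and *Teh1* had nearly the same mean and each was higher in 2 of 4 replicates (exact p = 0.75). By mean level, *para* stayed above *Ih* whichever replicate was left out, while *Teh1* came above *Teh2* without replicate 1 or without replicate 4.

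With division by library totals, 5 of the 8 members that passed the filter were highest in replicate 1, against 35.3% of all genes that passed. They were *Teh1*, *na*, *Ih*, *Ca-alpha1D* and *Ca-alpha1T*. With TMM scaling, which raises the effective total of replicate 1 by 1.15 times and lowers that of replicate 3 to 0.851, *na* and *Ca-alpha1T* were highest in replicate 3 and the other 3 stayed highest in replicate 1. For genes with differences this small, which replicate is highest depends on the scaling. By library totals, *para* and *Teh4* were highest in replicate 3, 2 of 8 members against 18.3% of genes, and *Teh1* and *Ih* were lowest there, 2 of 8 against 43.7%. In *para*, replicate 3 was highest and replicate 4 lowest under each of the 4 scalings tried.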

How the data were processed

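Libraries were made with the QuantSeq REV kit from 10 ng of total RNA per sample. By its methods, the study removed poly(A) stretches from the reads with fastp and mapped them to dm6 with STAR 2.6.1b with introns not allowed. The authors deposited raw counts per gene, obtained with featureCounts, and no other column. The paper names an Ensembl release for counting its RNA-seq data. Whether the 3′-seq counts used it, their strand setting and the handling of ambiguous reads are not given in the sources used here.

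CPM values are counts over library totals, and a count of 0 is read as at most 3 counts. The coefficient of variation of each gene came from edgeR 4.0.16 (R 4.3.3) with TMM scaling and an intercept, without shrinkage between genes, over the 7754 genes that reached 10 counts in all replicates, and the fit was tested on simulated data. Identifiers were matched to Ensembl release 115 on dm6 for symbols and coordinates. Alternatives were TMM scaling, size factors of DESeq2 1.42.0, scaling to neuronal markers, other minimums and leaving out each replicate. Python 3.11.15 served for the rest. The genes named were all members and listed partners and markers, and both members and lists were chosen with earlier results of these data known. Since *tipE* was not analysed and *Teh3* was at 0, 7 neighbouring pairs were compared in place of the 9 planned.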

Additional observations from a re-analysis of the deposited data

Results flagged for a closer look

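Of 38 values over the channel genes, their partners and the ratios between them, 5 had 1 replicate far from the other 3, with a gap to the nearest that exceeded Dixon's 95% critical value for 4 samples. Chance gives about 1 in 20 such values, and the ratios share genes with the levels. The same was seen in 5.16% of the 7754 genes that reached 10 counts throughout.

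In *Teh4*, replicate 3 was at 19.5 CPM and the others at 9.68, 8.81 and 9.46 CPM. *unc80* was also high in replicate 3, at 399.8 CPM against 256, 245 and 262 CPM, and its ratio to *unc79* was 3.47 there, against 1.53, 1.54 and 1.41. The ratio of *unc80* to *na* was 28.6 in replicate 1, against 45.4, 46.7 and 45.9 in the others. In *NaCP60E*, replicate 2 was low at 418 CPM, with 529, 531 and 531 CPM elsewhere.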

How the results depend on the processing

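Under TMM, DESeq2 size factors and neuronal marker scaling, no mean level of the 9 members shifted by as much as its SD. The number of members detected stayed at 8 under the other minimums and without any 1 replicate. Leaving out one replicate gave means of 524 to 900 CPM for *para* and 9.32 to 12.9 CPM for *Teh4*, and a ratio of *Teh1* to *Teh4* over *para* of 0.0843 to 0.149. From summed counts this ratio was 0.0765, against 0.120 as the mean of replicates. The highest over the lowest *para* value was 5.40, and 6.87, 7.06 and 5.05 under the other scalings, a reading chosen after seeing the data. The members' median coefficient of variation, 0.232, became 0.174 to 0.283 in the fits that left out a replicate. Without scaling factors the coefficient was 0.191 in place of 0.0915 for *Ih*, 0.144 in place of 0.0315 for *Teh1* and 0.240 in place of 0.150 for *Ca-alpha1D*. It was at 0.00988, the lowest value that the fit returned, for *Teh4* without replicate 3, in place of 0.474. The same held for *Ih* without replicate 1. For *Ca-alpha1D* the coefficient was 0.0494 without replicate 1. For *Teh1* it ranged from that lowest value, 0.00988, to 0.0643 with a replicate left out and was 0.0160 with a minimum on the mean count. No paired analysis was possible because no second group exists to pair the replicates with. The tests within libraries compared genes. Fewer counts limit *na* and *Teh4* most, and replicate 3 most among the libraries.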
